A study of Mus musculus with 38 samples.

Results

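JunB is one of the Jun proteins that form the transcription factor AP-1. Of the 19346 JunB peaks called in cortical neurons after KCl, 2773 overlapped no peak in 10 KCl lists of c-Fos or FosB. Their share was 14.3% (Wilson 95% interval 13.8% to 14.8%). These 2773 regions, here called lone JunB peaks, shared not even 1 bp with those lists, 6 of c-Fos and 4 of FosB. KCl lists from neurons with an shRNA against c-Fos or FosB were not among the 10. Below, a KCl c-Fos or FosB list or peak without mention of such an shRNA is one of the 10. The lone peaks were chosen by the presence or absence of peaks in those 10 lists, which is therefore no finding about them. The remaining 16573 JunB peaks (85.7%) overlapped at least 1 of the 10 lists and are called the other JunB peaks. The 22 AP-1 lists of the study held 233260 peaks in all.

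Binding was mapped by ChIP-seq, the sequencing of DNA recovered with an antibody from chromatin, in cultured neurons from cortices of C57BL/6 mouse embryos at day 16.5, used at day 7 in vitro. All cultures were silenced overnight with 1 µM TTX, which blocks voltage-gated sodium channels, and 100 µM DL-AP5, which blocks NMDA receptors. They were then depolarised with KCl for 2 h (the KCl groups) or kept silenced (the unstimulated groups). JunB was mapped with the antibody sc46 in 1 KCl library and 1 unstimulated library, both from biological sample 4, so no JunB value has a replicate check. The 10 lists that chose the lone peaks came from KCl-treated neurons: c-Fos with sc52 and with sc7202 and FosB with sc48, each in biological samples 3 and 4, and c-Fos with sc52 and FosB with sc48 in neurons carrying a control shRNA, each in biological samples 5 and 6. Outside the choice stood 4 lists from KCl-treated neurons with an shRNA against FosB (antibody sc48) or against c-Fos (antibody sc52), in biological samples 5 and 6. Another 6 lists came from unstimulated neurons of biological samples 3 and 4, with sc52, sc7202 and sc48. Acetylation of histone H3 at lysine 27 (H3K27ac) was listed per condition on biological samples 1 and 2 merged. The cells are given as cortical neurons, and the lists hold no expression values with which to check the cell types.

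AP-1 binds DNA as a pair of proteins. Fos proteins do not pair with themselves and need a Jun partner, whereas Jun proteins can pair with Fos, Jun or ATF family proteins. In neurons, c-Fos, FosB and JunB are products of genes that depolarisation induces. H3K27ac marks active promoters and enhancers, H3K4me1 marks enhancers, and CBP is an acetyltransferase that is recruited to them. Fos family members other than c-Fos and FosB were not analysed here, so a lone JunB peak is one without these 2 proteins in these lists and not one shown to lack a Fos partner.

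Peak strength was described by the authors' score, which rises as the p-value of a peak falls; a score of 50 stands for 1e-05 and was the lowest in the AP-1 lists, and a score of 100 stands for 1e-10. Lone JunB peaks were mostly weak. Their median score was 61.66, with quartiles of 54.84 and 74.11, against a median of 89.77 and quartiles of 65.36 and 143.81 for the other JunB peaks. They were also narrower, with a median width of 583 bp against 697 bp. A score of at least 100 was reached by 239 lone peaks (8.62%) and by 7117 other JunB peaks (42.9%).

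The share of JunB peaks that were lone fell along the score. It was 31.8% in decile 1, the lowest, of the JunB score (616 peaks), 14.0% in decile 5 (270 peaks) and 5.12% in decile 8 (99 peaks). In decile 9 it was 1.76% (34 peaks), and in decile 10, which started at a score of 221.09, it was 0.310% (6 peaks). JunB peaks that lay in exactly 1 of the 10 lists were close to the lone peaks in strength, with a median of 65.0 over 1917 peaks, whereas the 1393 peaks that lay in all 10 had a median of 290.59. Lone peaks thus lay mostly among the weaker JunB peaks of a single library, and the main comparisons are also given within 4 quartile groups of the JunB score. The lone peaks numbered 1441, 863, 389 and 80 in quartiles 1 to 4. The groups ended at scores of 62.13, 83.05, 131.67 and 3100.

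**Figure D1:**
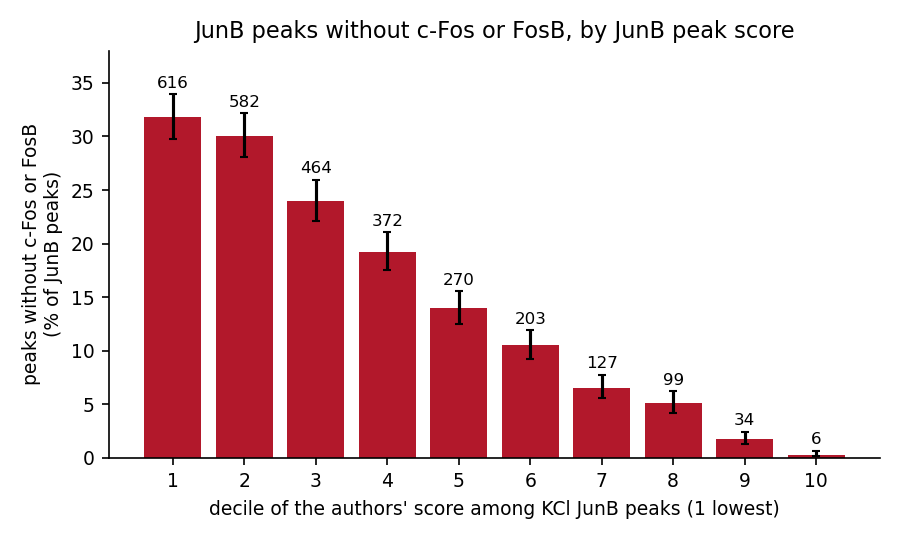
Share of the KCl JunB peaks that overlapped no peak of the 10 KCl c-Fos and FosB lists (y axis, percent). It is given for each decile of the authors' JunB score (x axis, 1 lowest). Bars carry Wilson 95% intervals, with the number of lone peaks above each. The share falls through the deciles, with 31.8% in the lowest and 0.310% in the highest.

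A gap or an overlap of a few bases decided few of the regions. The nearest KCl c-Fos or FosB peak lay a median of 14473 bp away (lower quartile 4757 bp), and 122 lone peaks had one within 500 bp. Just inside the rule stood chr8:114515267-114515701 (mm9), a lone peak of score 52.99 that lay 7 bp from a FosB peak. Just outside it stood chr14:22258658-22259475 (mm9), a JunB peak of score 79.21 that shared 2 bp with a FosB peak of the control shRNA neurons of biological sample 5. Of the other JunB peaks, 32 were included through overlaps of at most 100 bp. A KCl c-Fos or FosB peak lay within 10 kb of 1133 lone peaks (40.9%). These distances were taken to the lists that chose the regions. The other JunB peaks overlap such a peak by definition, so no share stands beside this one. Whether lone peaks lie closer to c-Fos or FosB than other regions do was not tested.

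Lone peaks were more often also JunB peaks in silenced neurons. The unstimulated JunB list, which played no part in choosing the regions, overlapped 340 lone peaks (12.3%, interval 11.1% to 13.5%) and 1268 other JunB peaks (7.65%, interval 7.26% to 8.07%). Over all 19346 JunB peaks the share was 8.31%. The difference was 4.61 percentage points, with a 95% interval of 3.37 to 5.94. All such intervals cover counting error only, because peaks of 1 library are not replicate cultures. When only the 3 KCl c-Fos and FosB lists of biological sample 4 decided, 7478 JunB peaks were without them, and the difference was 1.21 points, with 9.05% of these and 7.84% of the rest in the unstimulated list.

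The difference widened with peak strength. In quartile 1 of the score 6.66% of lone peaks and 2.80% of other JunB peaks were also listed in silenced neurons, and in quartile 2 the shares were 10.7% and 4.23%. In quartile 3 they were 26.2% of lone peaks and 6.32% of other JunB peaks. In quartile 4 they were 62.5% (50 of 80 lone peaks, interval 51.5% to 72.3%) and 15.2% (724 of 4756 other JunB peaks). The 2 highest deciles carried this furthest: 24 of 34 lone peaks (70.6%) in decile 9 and 6 of 6 in decile 10 were in the unstimulated JunB list, against 11.3% and 21.8% of the other JunB peaks. The few strong JunB peaks without c-Fos or FosB were thus largely ones that the same antibody also gave in the silenced neurons of the same culture.

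**Figure D2:**
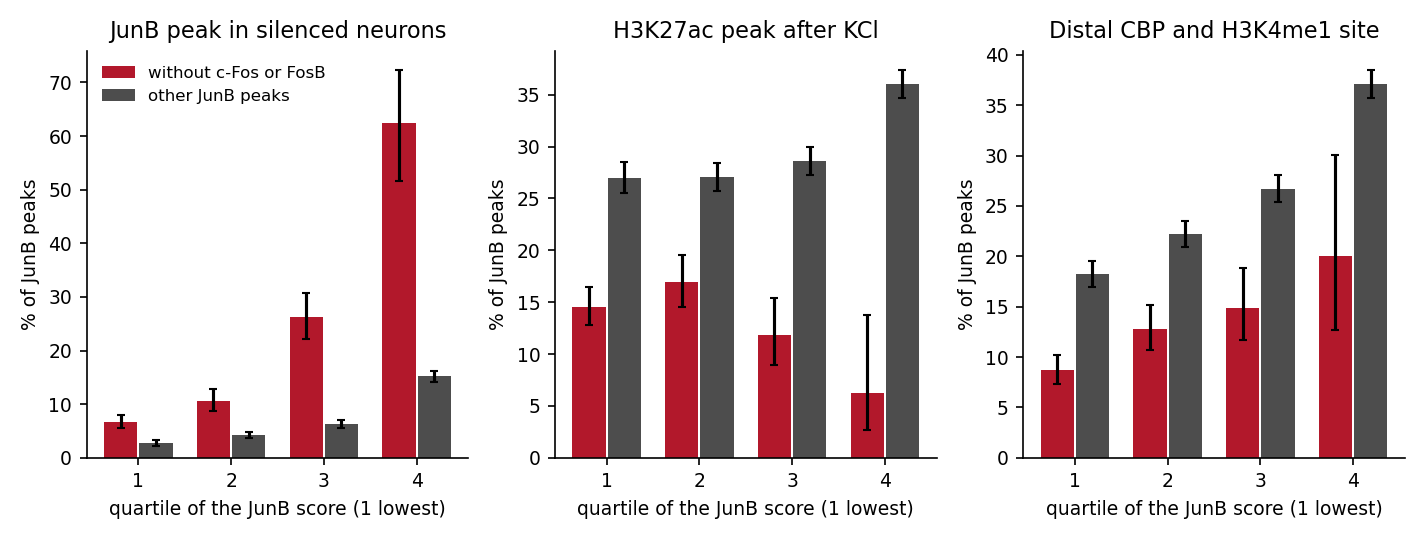
Share of lone JunB peaks (red, left bar) and other JunB peaks (grey, right bar) that overlapped a JunB peak of silenced neurons, a KCl H3K27ac peak or a distal CBP and H3K4me1 site (y axes, percent, each panel with its own scale), by quartile of the JunB score (x axes, 1 lowest), with Wilson 95% intervals. In the highest quartile 62.5% of lone peaks against 15.2% of the others lay in the silenced JunB list, while 6.25% against 36% lay in KCl H3K27ac peaks.

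Seen from the unstimulated JunB list, 345 of its 3126 peaks (11.04%) overlapped a lone JunB peak, 1344 (43.0%) overlapped only other KCl JunB peaks and 1437 (46.0%) overlapped no KCl JunB peak. The unstimulated peaks at lone regions had a median score of 102.55, against 113.37 for those at other KCl JunB peaks and 60.7 for those with no KCl partner. The highest decile of this list held 41 of the 345 (11.9%), against 251 of the 1344 at other KCl JunB peaks (18.7%). Scores rank peaks within a list, so values from the 2 JunB lists cannot show whether binding changed between conditions.

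The 5 lone peaks with the highest score were also the 5 strongest lone peaks shared with silenced neurons and the 5 strongest outside H3K27ac, so 3 ways of choosing gave the same regions. The first, chr4:70471716-70472440 (mm9, 725 bp), had a score of 335.55 and ranked 761 of the 19346 KCl JunB peaks. In the unstimulated list the same place held chr4:70471806-70472219, with a score of 391.03 and rank 106 of 3126. Its nearest KCl c-Fos peak lay 5014 bp away, its nearest FosB peak 5238 bp and its nearest H3K27ac peak 273485 bp.

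The second, chr7:128975832-128976509 (mm9), scored 269.89 after KCl and held a narrow unstimulated peak of score 54.51. It was the only one of the 5 at a distal CBP and H3K4me1 site, chr7:128976195, which the authors placed in their class with no H3K27ac. The third, chr10:8883813-8884552 (mm9), scored 233.98 after KCl and 320.15 without stimulation, with the nearest c-Fos peak 3886 bp away.

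The fourth, chr2:78834938-78835624 (mm9), scored 228.3 after KCl and 251.21 without stimulation. It alone of the 5 lay in a list outside the choice besides unstimulated JunB, namely the FosB list of FosB shRNA neurons of biological sample 6. The fifth, chr5:120779579-120780526 (mm9), scored 227.55 after KCl and 138.78 without stimulation, with a c-Fos peak 1522 bp away. H3K27ac peaks of both conditions missed all 5.

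Acetylation was scarcer at lone peaks. KCl H3K27ac peaks overlapped 407 lone peaks (14.7%, interval 13.4% to 16%) and 30.02% of other JunB peaks, against 27.8% of all JunB peaks, a difference of -15.3 percentage points (95% interval -16.8 to -13.8). Unstimulated H3K27ac peaks overlapped 417 lone peaks (15.0%) and 23.7% of other JunB peaks, against 22.5% of all JunB peaks, a difference of -8.66 points (interval -10.1 to -7.14). In quartile 1 of the score KCl H3K27ac covered 14.6% of lone peaks and 27% of the others. In the highest it covered 6.25% (5 of 80) and 36%.

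The authors gave H3K27ac peaks as a genome-wide list and a distal list. Peaks of the genome-wide list that were not in the distal list are here called non-distal. Lone peaks were low in both kinds. Distal KCl H3K27ac covered 354 lone peaks (12.8%) and 24.6% of other JunB peaks (22.9% of all JunB peaks), and distal unstimulated H3K27ac covered 372 lone peaks (13.4%) and 18.8% of the others (18% of all). Non-distal KCl H3K27ac covered 53 lone peaks (1.91%) and 5.38% of the others (4.88% of all), and non-distal unstimulated H3K27ac covered 45 lone peaks (1.62%) and 4.91% of the others (4.44% of all). Most lone regions, 2261 (81.5%), lay in no H3K27ac peak of either condition, as did 66.7% of other JunB peaks (68.8% of all). The nearest H3K27ac peak lay a median of 25926 bp from a lone peak and 10121 bp from another JunB peak.

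Where lone peaks were acetylated in 1 condition, the KCl side did not prevail. H3K27ac after KCl alone was found at 95 lone peaks (3.43%), against 9.58% of other JunB peaks and 8.7% of all JunB peaks. H3K27ac in silenced neurons alone was found at 105 lone peaks (3.79%), against 3.26% of other JunB peaks and 3.34% of all, a difference of 0.522 points whose interval spanned 0 (-0.185 to 1.34). H3K27ac in both conditions was found at 312 lone peaks (11.3%), against 20.4% of other JunB peaks and 19.1% of all.

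Among the 200 lone peaks acetylated in 1 condition, 47.5% (interval 40.7% to 54.4%) were acetylated after KCl, against 74.6% of the 2129 other JunB peaks of this kind, a difference of -27.1 points (interval -34.1 to -19.9). At JunB peaks in 1, 2 and 3 of the 10 c-Fos and FosB lists it was 60.9%, 62.0% and 61.1%, in 4, 5 and 6 lists 72.2%, 67.0% and 68.4%, and in 7, 8, 9 and 10 lists 79.5%, 80.8%, 87.8% and 90.3%. The ends thus differed, while neighbouring steps did not always climb. By quartile of the JunB score it was 45.7%, 58.6%, 36.7% and 0% (0 of 6) at lone peaks, and 69.8%, 66.4%, 71.6% and 83.0% at other JunB peaks; in quartile 2 the intervals of both overlapped.

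**Figure D3:**
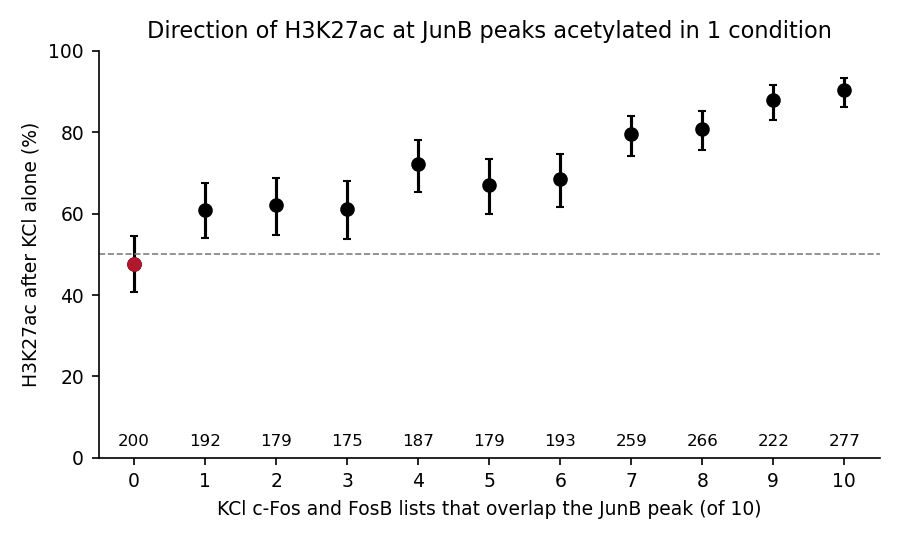
Among JunB peaks with H3K27ac in 1 condition, the share with it after KCl alone (y axis, percent) by the number of KCl c-Fos and FosB lists that overlap the peak (x axis), with Wilson 95% intervals and the number of peaks at the foot. The dashed line marks equal numbers, which the lone peaks (red, 47.5%) straddle and the peaks in all 10 lists (90.3%) exceed.

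The same held from the side of the H3K27ac lists. A lone JunB peak lay in 83 of 5329 H3K27ac peaks found after KCl alone (1.56%) and in 98 of 6105 found in silenced neurons alone (1.61%), shares whose intervals overlapped. For the other JunB peaks these shares were 25.9% and 8.01%. The H3K27ac lists at large held no excess of peaks after KCl alone, with 5329 against 6105. The lack of such an excess is therefore not particular to the lone peaks.

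Distal sites with both CBP and H3K4me1, a signature of enhancers, were a list labelled as from Kim et al. and were not mapped in these libraries. They lay in 309 lone peaks (11.1%, interval 10.03% to 12.4%) and in 26.9% of other JunB peaks, against 24.6% of all JunB peaks. The difference was -15.7 points (interval -17.02 to -14.3), and lone peaks were lower in each quartile of the score, with 8.67%, 12.7%, 14.9% and 20% against 18.2%, 22.2%, 26.7% and 37.1% of the others. The authors sorted some of these sites into 4 classes by H3K27ac. Increasing enhancers, where H3K27ac grew with KCl, lay in 25 lone peaks (0.902%), 4.80% of other JunB peaks and 4.24% of all. Constant ones lay in 19 lone peaks (0.685%), 1.33% of the others and 1.24% of all.

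Decreasing enhancers lay in 24 lone peaks (0.865%), 1.24% of other JunB peaks and 1.18% of all, and here the interval of the difference spanned 0 (-0.707 to 0.0762 points). Sites with no H3K27ac lay in 63 lone peaks (2.27%), 4.59% of the others and 4.26% of all. Of the lone peaks at a CBP and H3K4me1 site, 8.09% were thus at an increasing enhancer and 7.77% at a decreasing one, against 17.9% and 4.61% of the other JunB peaks at such a site. None of the lone peaks held a combined c-Fos site of the authors, which lay in 43.4% of all JunB peaks; these sites are named for c-Fos binding and are not independent of the rule.

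Of the 25 lone peaks at increasing enhancers, the strongest was chr16:31400848-31401693 (mm9), with a score of 150.45 after KCl and an unstimulated JunB peak of score 249.85. Its enhancer at chr16:31401295 lay in an H3K27ac peak of score 289.87 after KCl and of score 94.35 without stimulation. The nearest c-Fos peak was 26952 bp away. The second, chr16:28440778-28441336, had a JunB score of 113.42 and lay in a KCl H3K27ac peak of score 103.82, with no H3K27ac peak in silenced neurons.

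The next 3 were weaker JunB peaks. They were chr5:124419828-124420439 with a JunB score of 83.93, chr3:68100090-68101083 with 82.2 and chr5:97105772-97106437 with 80.53. The last of these was the nearest to c-Fos, with a peak 283 bp away, and lay in H3K27ac of score 611.4 after KCl and 235.23 without stimulation. Among the 5 only the strongest had a JunB peak in silenced neurons.

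The 340 lone peaks in the unstimulated JunB list and the remaining 2433 differed in their surroundings, and the other JunB peaks divided in the same directions in the lack of any H3K27ac peak, CBP and H3K4me1 sites and the class with no H3K27ac. Lone peaks shared with silenced neurons had a median KCl score of 75.785, against 60.36 for the rest. They lay outside H3K27ac in 89.1% of cases (303 of 340), against 80.5% of the rest, and none lay in a non-distal H3K27ac peak. Yet they lay at a CBP and H3K4me1 site in 20.6% of cases (70 of 340), against 9.82% of the rest. Most of the classified enhancers among these were of the class with no H3K27ac: 33 peaks (9.71%) held such a site, against 30 (1.23%) of the rest. A decreasing enhancer lay in 2 of the 340 and in 22 of the rest. An increasing enhancer lay in 1 of the 340 (0.294%, interval 0.0519% to 1.65%). It lay in 24 of the rest (0.986%, interval 0.664% to 1.46%), and these intervals overlapped. Among the other JunB peaks, the 1268 in the unstimulated list lay outside H3K27ac in 73.8% of cases and the rest in 66.1%. They lay at a CBP and H3K4me1 site in 38.7% of cases and the rest in 25.9%, in KCl non-distal H3K27ac in 1.34% and the rest in 5.71%, and at a site of the class with no H3K27ac in 12.4% and the rest in 3.95%. That class was also the most frequent of the 4 there, with 157 peaks against 34 at increasing, 19 at constant and 39 at decreasing enhancers. Increasing enhancers lay in 2.68% of the listed and 4.97% of the remaining other JunB peaks. Decreasing enhancers lay in 3.08% of the listed and 1.08% of the remaining other JunB peaks. At lone peaks the shares were 0.588% (interval 0.161% to 2.12%) of the listed and 0.904% (interval 0.598% to 1.37%) of the remaining. Those intervals overlapped, so the lone peaks showed no direction for this class.

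The 40 lone peaks in the 2 highest deciles of the JunB score were largely drawn from these 340, with 30 (75%) in the unstimulated JunB list, against 16.6% of the 3829 other JunB peaks of those deciles. In no H3K27ac peak were 37 of the 40 (92.5%), against 60.6% of the others. A CBP and H3K4me1 site lay in 8 (20%), against 38.5% of the others. One of the class with no H3K27ac lay in 5 (12.5%, interval 5.46% to 26.1%), against 6.42% of the others, a share inside that interval. None of the 40 held an increasing enhancer (upper Wilson bound 8.76%), against 9.06% of the others (interval 8.19% to 10.01%). These intervals overlapped.

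Features of JunB peaks changed with the number of c-Fos and FosB lists, and the lone peaks stood at the end of most of these series. KCl H3K27ac covered 14.7% of lone peaks, 19.5% of peaks in 1 list, 28.6% in 5 lists and 44.7% in all 10. CBP and H3K4me1 sites lay in 11.1%, 16.1%, 24.0% and 45.0% of the same groups. Overlap with the unstimulated JunB list ran otherwise. It was 12.3% in lone peaks, 9.34% in 1 list, 5.16% in 7 lists and 14.7% in all 10, so both ends exceeded the middle. Stronger JunB peaks lay in more lists, and this series was not held at 1 score.

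**Figure D4:**
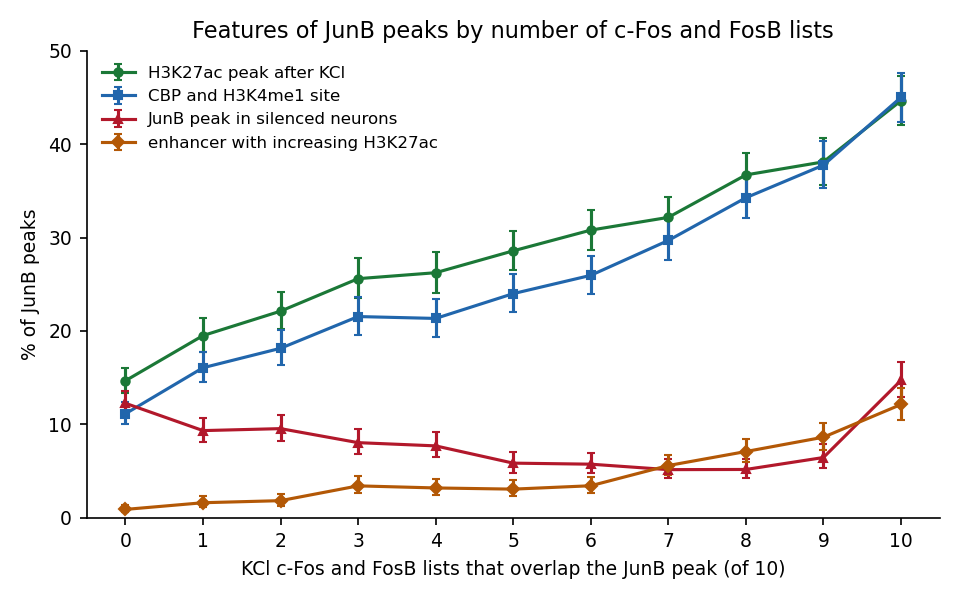
Share of JunB peaks (y axis, percent) with an H3K27ac peak after KCl, a distal CBP and H3K4me1 site, a JunB peak in silenced neurons or an enhancer with increasing H3K27ac, by the number of KCl c-Fos and FosB lists that overlap the peak (x axis, 0 for the lone peaks), with Wilson 95% intervals. H3K27ac and CBP sites climb from the lone peaks to the peaks in all 10 lists, while JunB in silenced neurons is at 12.3% and 14.7% at the ends and at 5.16% in 7 lists.

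Compared with the 1917 peaks in exactly 1 list, which were close in score, the lone peaks kept the same directions with smaller differences. The lone minus 1-list difference was 2.92 points in unstimulated JunB, -4.83 points in KCl H3K27ac, -2.28 points in unstimulated H3K27ac and -4.92 points in CBP and H3K4me1 sites. This comparison was chosen after the data were seen.

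The 10 c-Fos and FosB lists outside the choice used the same antibodies as the lists that chose the regions, so their shares are not independent of that choice and are given as a description. FosB lists of FosB shRNA neurons overlapped 80 lone peaks (2.88%) in biological sample 5 and 161 (5.81%) in biological sample 6. The other JunB peaks were overlapped in 29.6% and 25.5% of cases, and all JunB peaks in 25.8% and 22.7%. Both lists held 23 lone peaks (0.829%), against 15.8% of other JunB peaks and 13.7% of all. Lists of c-Fos from c-Fos shRNA neurons overlapped 13 lone peaks (0.469%) in sample 5 and 1 (0.0361%) in sample 6, against 10.04% and 1.496% of the other JunB peaks and 8.67% and 1.29% of all.

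In silenced neurons the lone peaks were again the lower. With the c-Fos antibody sc52, 44 lone peaks (1.59%) were listed in biological sample 3 and 32 (1.15%) in sample 4, against 3.45% and 2.05% of the other JunB peaks and 3.18% and 1.92% of all. With the c-Fos antibody sc7202 there were 3 (0.108%) and 2 (0.0721%), against 0.899% and 0.459% of the others and 0.786% and 0.403% of all. Unstimulated FosB listed 5 lone peaks (0.180%) in sample 3 and 87 (3.14%) in sample 4, against 1.53% and 5.00% of the others and 1.34% and 4.73% of all. Biological sample 4, which also gave both JunB libraries, thus held most of the FosB overlap although its unstimulated FosB list was the shorter, with 2041 peaks against 4229. By quartile of the JunB score, both sc52 lists held more of the lone peaks in quartiles 3 and 4, and fewer in quartiles 1 and 2. In quartile 4 the shares were 8.75% of lone and 6.48% of other JunB peaks in sample 3. They were 11.3% and 4.42% in sample 4, with an interval of the difference of 1.58 to 15.6 points. That interval spanned 0 in sample 3. The sc7202 and FosB lists held fewer of the lone peaks in quartile 4, and each interval of the difference spanned 0. In quartile 3 the FosB list of sample 4 held 5.66% of lone and 3.69% of other JunB peaks. The interval of that difference also spanned 0 (-0.0143 to 4.77 points). The sc7202 lists and the FosB list of sample 3 held fewer of the lone peaks in quartile 3.

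**Figure D5:**
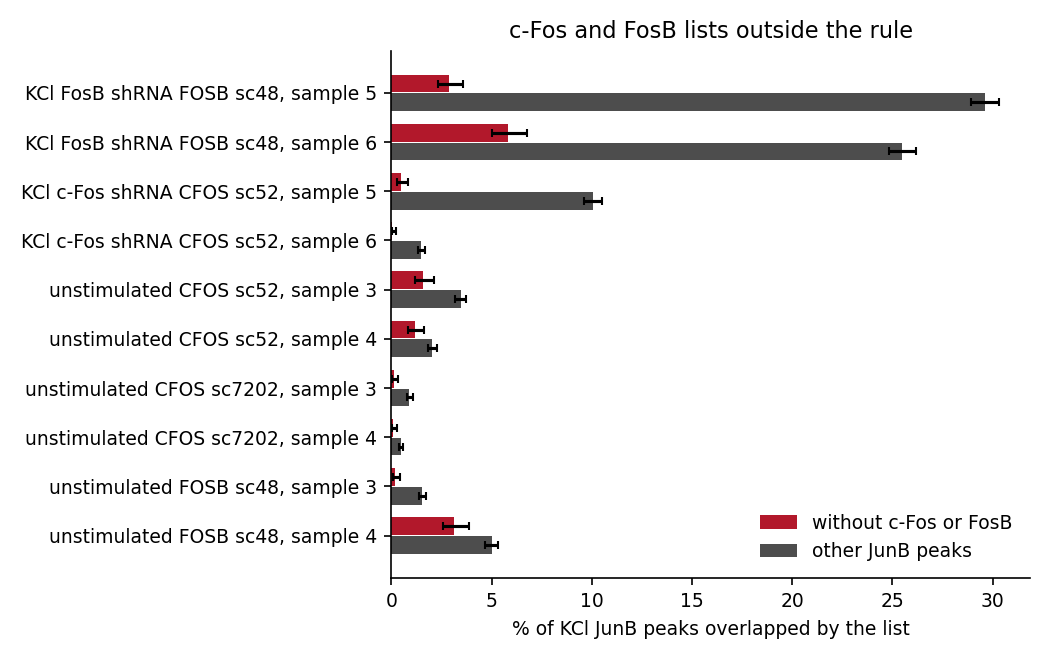
Share of lone JunB peaks (red, upper bar) and other JunB peaks (grey, lower bar) overlapped by each of the 10 c-Fos and FosB lists that did not choose them (x axis, percent), with Wilson 95% intervals; rows name the group and biological sample. Lone peaks are below the other JunB peaks in all 10, and their highest share is 5.81%, in the FosB shRNA list of biological sample 6.

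Overlap with some of the unstimulated lists was more frequent at lone peaks that were also in the unstimulated JunB list. Of those 340, unstimulated sc52 lists held 39 (11.5%) in sample 3 and 28 (8.24%) in sample 4, and the unstimulated FosB list of sample 4 held 56 (16.5%). Of the other 2433 lone peaks these lists held 5, 4 and 31. The other JunB peaks divided in the same direction: the 3 lists held 30.3%, 20.9% and 45.2% of those in the unstimulated JunB list, and 1.23%, 0.484% and 1.67% of those not in it. The FosB shRNA lists held 15 of the 340 (4.41%) in sample 5 and 44 (12.9%) in sample 6. Of the other 2433 lone peaks they held 2.67% and 4.81%, and the intervals overlapped in sample 5. Among the other JunB peaks these lists held 54.3% and 59.2% of those in the unstimulated JunB list, and 27.6% and 22.7% of those not in it.

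At least 1 of the 10 lists outside the choice held 324 lone peaks (11.7%), against 43.1% of other JunB peaks and 38.6% of all JunB peaks. Of these lone peaks 123 (4.44% of all lone peaks) were also in the unstimulated JunB list, against 6.28% of other JunB peaks and 6.02% of all that were in both. Neither the unstimulated JunB list nor any of these 10 lists held 2232 lone peaks (80.5%), against 55.5% of other JunB peaks and 59.1% of all. The median score of these lone peaks was 60.18. A further lack of H3K27ac and of a CBP and H3K4me1 site left 1742 lone peaks (62.8%), against 36.2% of other JunB peaks and 40% of all.

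By chromosome, lone peaks made up between 11.1% (chromosome 19) and 16.8% (chromosome 14) of the JunB peaks of the 19 autosomes. On chromosome X they made up 76 of 294 (25.9%, interval 21.2% to 31.1%), against 14.2% of the autosomal JunB peaks, a difference of 11.7 points (interval 6.99 to 17.002). The difference lay in the weak peaks: in quartiles 1 and 2 of the score 48.8% and 33.3% of JunB peaks on X were lone, against 29.5% and 17.6% on the autosomes. In quartile 3 the shares were 10.8% and 8.003%, with an interval of the difference that spanned 0, and in quartile 4 they were 0 of 53 on X and 1.67%. The X chromosome held 1.52% of KCl JunB peaks, between 1.02% and 1.45% of the peaks of the 10 lists that chose the regions, and 2.09% of KCl H3K27ac peaks. The part of these list differences in the result was not tested.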

How the data were processed

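Reads were aligned with BWA to mm9, per the submitters' processing notes. Peak names in the deposited files begin with MACS; for its version and control library, the sources used here state nothing. The authors called every AP-1 list from a single library. The authors' deposited score per peak served to rank peaks inside a list and to set minimum scores. Scores, peak positions and the authors' site lists (CBP and H3K4me1, enhancer classes, combined c-Fos sites) were taken as deposited. They hold no read counts, so the depth of every library is unknown. The CBP and H3K4me1 sites are labelled as from Kim et al., and no library of this study mapped CBP or H3K4me1.

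An overlap was a shared stretch of at least 1 bp. A site counted when it lay inside the JunB peak. Shares carry Wilson 95% intervals and differences of shares Newcombe intervals. No test across samples was possible with 1 JunB library per condition. The lone peaks, comparisons and settings were chosen with earlier results of these data known. The direction of H3K27ac and the chromosome X comparison were added after seeing the data. Regions named were the 5 lone peaks with the highest score, and the 5 highest among those at an increasing enhancer, in the unstimulated JunB list or outside H3K27ac, and the one nearest to a c-Fos or FosB peak; the region just outside the rule was the one with the smallest overlap. The overlap and interval steps were tested on simulated data. DNA sequence, motifs and genes were not analysed here, because no genome of build mm9 was used; 12 input libraries and any library with JunB depleted were not analysed here. Python 3.11.15 with numpy 2.4.6, pandas 2.3.3, scipy 1.17.1 and matplotlib 3.10.9 was used.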

Additional observations from a re-analysis of the deposited data

How the results depend on the processing

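The number of lone peaks depended on the lists that decided it: 7478 with the lists of biological sample 4 only, 4162 without the control shRNA lists, 7492 with c-Fos and FosB peaks of score at least 100, 239 with JunB peaks of score at least 100, and 2784 to 3556 with 1 list or 1 biological sample left out. The other values are lone minus other JunB peaks, in percentage points. For unstimulated JunB the difference was 1.21 with biological sample 4 only, 2.38 with c-Fos and FosB scores of at least 100, 32.1 with JunB scores of at least 100, 6.43, 19.9 and 47.3 in quartiles 2, 3 and 4 of the score, 19.4 as the mean over quartiles, 2.92 against peaks in 1 list, and 3.33 to 5.14 with 1 left out. For KCl H3K27ac it was -17.3 with no c-Fos or FosB within 1 kb, -11.2 with sample 4 only, -20.9 with JunB scores and -12.6 with H3K27ac scores of at least 100, -12.4, -10.1 and -29.7 in quartiles 1, 2 and 4, -17.3 as the mean over all 4 quartiles, -4.83 against peaks in 1 list, and -16.8 to -13.4 with 1 left out. For unstimulated H3K27ac it was -10.6 with the 1 kb limit, -4.59 with sample 4 only, -10.9 in quartile 4, -2.28 against peaks in 1 list, and -10.3 to -6.88 with 1 left out. For CBP and H3K4me1 sites it was -11.6 with sample 4 only, -18.03 with JunB scores of at least 100, -9.52, -9.43, -11.8 and -17.1 in quartiles 1 to 4, -12.0 as their mean, -4.92 against peaks in 1 list, and -17.3 to -13.2 with 1 left out. For H3K27ac after KCl alone among peaks acetylated in 1 condition it was -48.1 with JunB scores of at least 100, -7.88, -34.9 and -83.0 in quartiles 2, 3 and 4, -13.4 against peaks in 1 list, and -27.6 to -23.1 with 1 left out. The share of lone peaks on chromosome X minus autosomes was 18.02 with c-Fos and FosB scores and 0.0822 with JunB scores of at least 100, 19.2 and 2.81 in quartiles 1 and 3, and 10.7 to 13.8 with 1 left out; it turned to -1.67 in quartile 4, which held 53 JunB peaks on X. That was the one direction that turned among these results, and the causes were not tested. The comparison with peaks in 1 list and the last 2 results were chosen after seeing the data. No paired analysis was possible because JunB was mapped in biological sample 4 only; the values with lists of that sample are the comparison within 1 culture. The lists hold no reads, so how sequencing depth limits the calling of weak c-Fos and FosB peaks is unknown.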
